A study of Homo sapiens with 2 samples.

Results

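The genes of HLA class I and of its peptide supply were followed in a TSG101-deficient human osteosarcoma line on 2 cDNA arrays. Spots were taken when their gene symbol was HLA-B, HLA-C, HLA-E, HLA-F, HLA-G, B2M, TAP1, TAP2 or TAPBP. The arrays held 16 such spots, from 15 cDNA clones of 8 genes, among 41342 spots that were not controls. HLA-B had 0 spots under its own symbol. After flagged spots were left out, 13 clones of the 8 genes could be tested among 34674 probes. A further 7 spots, from 4 clones, carried a member symbol beside the symbol of another gene and are described apart.

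Both arrays compared the line Saos-2-2, which constitutively expresses a TSG101 shRNA, with its parent Saos-2, which carries no TSG101 shRNA. Saos-2 is an established osteosarcoma cell line, and both lines grew in the same medium with serum and without treatment. Each array was 1 of 2 biological replicates. Saos-2-2 carried the Cy5 label on both and its parent the Cy3 label, without a swap, so that a dye effect and a difference between the lines cannot be told apart. Saos-2-2 came from a colony that was cloned after it showed puromycin resistance and GFP fluorescence, and no line with a control shRNA was hybridised. Cloning, selection and lower TSG101 therefore cannot be told apart here.

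HLA class I molecules display peptides from the inside of the cell to CD8 T cells and natural killer cells. A heavy chain, encoded by an HLA gene, pairs with beta-2-microglobulin, the product of B2M, in the endoplasmic reticulum. The transporter TAP, made of TAP1 and TAP2, carries peptides into that compartment, and tapasin, encoded by TAPBP, holds the heavy chain next to TAP while a peptide is loaded. These genes are known for their response to interferon and to NLRC5. TSG101 is an ESCRT protein, and ESCRT complexes bring ubiquitin-tagged membrane proteins to the lysosome.

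The promoters of these genes share short elements, and 6 of them are printed to show where the exact letters given below occur. The sequences are the 250 bases before the start of the gene in RefSeq, build GRCh38.p14, read 5′ to 3′ on the strand of the gene. Capitals mark matches, on either strand, to a core of the interferon-stimulated response element (GAAANNGAA), to the kB site of enhancer A (GGGGATTC), to the Y box (ATTGG) and to the core of a CRE site (TGACG).
HLA-C, chr6:31272093-31272342 (- strand): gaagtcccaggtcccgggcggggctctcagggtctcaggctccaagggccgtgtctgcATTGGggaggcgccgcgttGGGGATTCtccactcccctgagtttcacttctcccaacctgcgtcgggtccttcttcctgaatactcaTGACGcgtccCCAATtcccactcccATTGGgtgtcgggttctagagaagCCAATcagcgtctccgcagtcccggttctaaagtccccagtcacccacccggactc
HLA-F, chr6:29723184-29723433 (+ strand): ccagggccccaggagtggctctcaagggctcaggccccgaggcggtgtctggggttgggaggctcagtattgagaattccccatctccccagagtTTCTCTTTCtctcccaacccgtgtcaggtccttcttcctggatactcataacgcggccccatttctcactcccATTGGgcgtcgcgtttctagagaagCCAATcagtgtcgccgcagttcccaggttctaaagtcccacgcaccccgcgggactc
B2M, chr15:44711267-44711516 (+ strand): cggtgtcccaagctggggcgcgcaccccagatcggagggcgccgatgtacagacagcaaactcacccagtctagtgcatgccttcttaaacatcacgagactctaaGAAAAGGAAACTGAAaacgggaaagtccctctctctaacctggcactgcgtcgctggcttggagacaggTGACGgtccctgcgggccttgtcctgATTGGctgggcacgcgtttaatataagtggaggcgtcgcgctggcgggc
TAP1, chr6:32853705-32853954 (- strand): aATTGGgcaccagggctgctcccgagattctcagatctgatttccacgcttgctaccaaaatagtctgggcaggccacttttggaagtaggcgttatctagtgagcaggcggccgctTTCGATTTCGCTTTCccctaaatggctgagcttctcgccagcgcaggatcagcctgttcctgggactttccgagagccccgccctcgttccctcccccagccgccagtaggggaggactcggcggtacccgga
TAP2, chr6:32838740-32838989 (- strand): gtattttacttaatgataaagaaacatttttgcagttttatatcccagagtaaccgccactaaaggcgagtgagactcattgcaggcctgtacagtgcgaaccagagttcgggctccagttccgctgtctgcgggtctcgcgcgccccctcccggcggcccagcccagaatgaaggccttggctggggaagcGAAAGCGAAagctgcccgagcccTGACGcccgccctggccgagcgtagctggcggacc
TAPBP, chr6:33314079-33314328 (- strand): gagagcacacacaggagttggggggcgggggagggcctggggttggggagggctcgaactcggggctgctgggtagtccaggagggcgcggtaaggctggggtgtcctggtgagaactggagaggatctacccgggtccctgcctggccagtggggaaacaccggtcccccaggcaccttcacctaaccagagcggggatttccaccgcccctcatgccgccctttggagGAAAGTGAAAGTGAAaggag

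Of the 9 genes, 8 had an entry, and HLA-E is named only. The response element core was found in 5 of the 8 genes, in HLA-F, B2M, TAP1, TAP2 and TAPBP, and in 6.88% of all 35116 promoters of that length. TAP1, TAPBP and B2M held 2 overlapping matches each, and TAP2 held 1, at 58 bases before the start. The kB site was found in 3 genes, HLA-B, HLA-C and HLA-G, and in 0.772% of all promoters. The Y box occurred in 6 genes and in 32% of all promoters, and the CRE core in 4 genes and in 21.2%. For TAP1 and HLA-G, which have several starts, a gene was counted when any start had a match. The shares of all promoters count each start by itself, so that they differ in unit from the counts of genes. On the reference, TAP2, PSMB8, TAP1 and PSMB9 follow each other as neighbouring coding genes, and HLA-DOB lies on the other side of TAP2. A match is a description of letters and not a site shown to be bound. Only these exact letters were searched. Variants of an element were not, so that a gene without a match may still hold one.

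No clone of these genes passed an adjusted p of 0.05 in limma, and neither did any other probe of the arrays (0 of 34674, 0%, smallest adjusted p = 0.106). At an unadjusted p under 0.05, 13.5% of all probes were higher in Saos-2-2 and 9.7% were lower. Of the 13 clones, 1 was higher by this rule, from TAP2, and 1 was lower, from HLA-E. In neither direction is 1 of 13 clones above the share of all probes. The median log2 ratio of Saos-2-2 over Saos-2 was -0.17 over the 13 clones and -0.01 over all probes. On 1 array alone the median of the 13 was -0.0671 (replicate 1) or -0.0818 (replicate 2), and with the deposited ratios it was -0.33. The log2 ratio lay below 0 for 9 of the 13 clones and for 50.8% of all probes, and 12 of the 13 lay within 0.5 of 0. Ratios of both arrays had the same sign for 9 of the 13 clones, and for 70.7% of all probes.

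**Figure D1:**
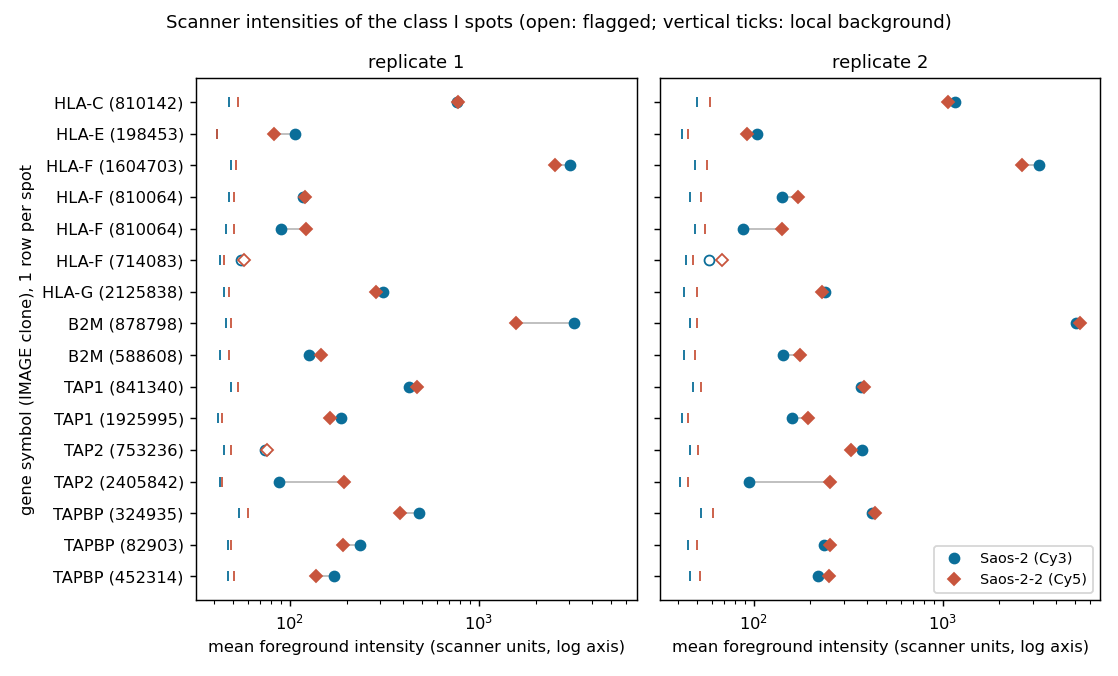
Mean foreground intensity (scanner units, log axis) of each spot of a single member gene, for Saos-2 (circles) and Saos-2-2 (diamonds) on each array, with the local background as ticks and flagged spots open. The TAP2 clone IMAGE:2405842 is brighter in Saos-2-2 on both arrays (193 against 88 and 254 against 94), whereas the B2M clone IMAGE:878798 is dimmer in Saos-2-2 on replicate 1 alone (1582 against 3180, and 5368 against 5055 on replicate 2).

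Intensities below are mean foregrounds as the scanner gave them, and log2 ratios are those after background correction and loess normalization. A log2 ratio is a difference between the lines for 1 clone, and RNA levels were not compared between genes. Clones of a gene are called brighter or dimmer by their mean intensity alone. The local background of the member spots lay between 41 and 61 units. The heavy chain genes resemble each other closely in sequence, so that a spotted cDNA of one may also bind RNA of another, and this was not tested.

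HLA-C, a classical heavy chain that presents peptides in most cells, was represented by clone IMAGE:810142. This clone read 765 in Saos-2 and 782 in Saos-2-2 on replicate 1, then 1161 and 1066 on replicate 2. The log2 ratios were 0.16 and -0.19, on opposite sides of 0, with a mean of -0.02 (standard error 0.14, 95% interval -0.41 to 0.37, n = 2 arrays, limma adjusted p = 0.954). A difference beyond the spread of the arrays was not detected, and the interval does not exclude a log2 difference of up to 0.41 in size.

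HLA-E, a nonclassical heavy chain that presents leader peptides of other class I chains to natural killer cells, gave the lowest ratio of the member clones. Clone IMAGE:198453 read 107 in Saos-2 and 83 in Saos-2-2 on replicate 1, then 104 and 92 on replicate 2. Both readings of Saos-2-2 lay below both of Saos-2, at a foreground of at least 2.02 times the local background. The log2 ratios were -0.45 on replicate 1 and -0.45 on replicate 2, with a mean of -0.45 (standard error 0.10, 95% interval -0.74 to -0.16). The clone passed the unadjusted rule but not the adjusted one (limma adjusted p = 0.140). Its log2 ratio stayed below 0 in the main fit and the 13 alternatives with a test, between -0.83 and -0.36, with adjusted p from 0.0725 to 0.172.

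HLA-F is a nonclassical heavy chain that can reach the cell surface without peptide. Its brightest clone, IMAGE:1604703, read 3033 in Saos-2 and 2522 in Saos-2-2 on replicate 1, then 3221 and 2619 on replicate 2. Saos-2-2 was dimmer on both arrays, with log2 ratios of -0.05 and -0.29 and a mean of -0.17 (95% interval -0.51 to 0.17, limma adjusted p = 0.434). The array annotation marks the well of this clone with failed code 2, a code that the sources used here do not explain. Under median centring the ratio was -0.38 and under the scanner software's ratios -0.47, and in both the clone passed the unadjusted rule.

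The HLA-F clone IMAGE:810064 was spotted from 2 wells, and the wells differed. The spot of a CGAP plate read 90 in Saos-2 and 122 in Saos-2-2 on replicate 1, then 88 and 141 on replicate 2, with log2 ratios of 0.28 and 0.39. The other spot, from a well with failed code 2, read 118 and 120, then 141 and 172, with log2 ratios of -0.11 and -0.003. Their mean was 0.14 (95% interval -0.16 to 0.44, limma adjusted p = 0.472). Without CGAP plates the ratio of this clone was -0.02, and without wells of a failed code it was 0.32. The remaining clone, IMAGE:714083, was flagged on both arrays and gave no ratio, with foregrounds of 55 and 57 on replicate 1 and 58 and 68 on replicate 2.

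HLA-G, a nonclassical heavy chain known from the placenta, was represented by clone IMAGE:2125838. It read 310 in Saos-2 and 288 in Saos-2-2 on replicate 1, then 238 and 229 on replicate 2. The log2 ratios were -0.07 and -0.27, with a mean of -0.17 (95% interval -0.49 to 0.16, limma adjusted p = 0.426). Among the 5 heavy chain clones tested, 4 lay below 0 and the median log2 ratio was -0.17, with -0.05 on replicate 1 and -0.27 on replicate 2.

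B2M, the light chain shared by the class I molecules, was measured by 2 clones that differed in brightness and in spread. The brighter, IMAGE:878798, read 3180 in Saos-2 and 1582 in Saos-2-2 on replicate 1, then 5055 and 5368 on replicate 2. The arrays gave log2 ratios of -0.80 and 0.14, a gap of 0.95 that was the widest among the member clones. Their mean of -0.33 had a 95% interval from -1.09 to 0.42 (limma adjusted p = 0.489), and the sign differed between the arrays. The dimmer clone, IMAGE:588608, read 127 and 147 on replicate 1 and 143 and 177 on replicate 2, with log2 ratios of 0.08 and 0.03 (mean 0.05, 95% interval -0.24 to 0.35, limma adjusted p = 0.768).

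Opposite ratios on the arrays were also seen for matrix genes of the osteoblast lineage. Of 9 measured osteoblast and osteosarcoma markers, 3 had the same sign on both arrays, and the median log2 ratio of the 9 was -1.67 on replicate 1 and 1.17 on replicate 2. COL1A2, a chain of type I collagen, was at -3.23 and 3.33, and SPARC, a collagen-binding matrix protein, at -2.22 and 2.27. Here 9 of 10 listed markers had a tested clone. Testing itself required a channel at 1.5 times its local background on both arrays. A count of measured markers above that level is therefore largely set by the filter and is not given. The median of the 9 was 13.0 to 48.3 times the background across lines and arrays. The part of this gap between the arrays in the B2M ratios was not tested. For leukocytes, a lineage rich in class I, 6 of 8 listed markers were measured, with a median of 3.40 to 5.54 times the background. Of the endothelial markers 3 of 4 listed were measured, and of the epithelial markers 4 of 4. Their medians were 3.25 to 5.23 times for endothelium and 9.94 to 17.5 times for epithelium. The median probe of the arrays stood at 3.73 to 4 times, and whether a marker gene was expressed was not tested.

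TAP1, a subunit of the peptide transporter, showed no difference beyond the arrays' spread in either clone. IMAGE:841340 read 426 in Saos-2 and 472 in Saos-2-2 on replicate 1, then 371 and 382 on replicate 2, with log2 ratios of 0.23 and -0.10 (mean 0.07, 95% interval -0.31 to 0.45, limma adjusted p = 0.781). IMAGE:1925995 read 188 and 163, then 159 and 194, with log2 ratios of -0.25 and 0.06 (mean -0.10, 95% interval -0.47 to 0.27, limma adjusted p = 0.668). The clones thus differed in sign from each other on both arrays.

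TAP2, the partner of TAP1, gave the highest ratio of the member genes, from 1 clone. IMAGE:2405842 read 88 in Saos-2 and 193 in Saos-2-2 on replicate 1, then 94 and 254 on replicate 2. Both readings of Saos-2-2 were above both of Saos-2, whose readings stood at about 2 times the local background. The log2 ratios were 1.02 and 1.14, with a mean of 1.08, or 2.11-fold (standard error 0.11, 95% interval 0.77 to 1.38). Across all probes this missed the adjusted threshold (limma adjusted p = 0.106). That value is the smallest reached on the arrays, and other probes shared it, among them clones of FCGRT and PSME4.

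The size of this ratio differed between treatments of the background. It was 1.63 with plain subtraction and 1.08 without any correction. The deposited log2 ratios, which are scaled by 1 factor per array and hold no offset, were 1.84 and 1.75 for the clone, a mean of 1.80 or 3.47-fold (limma adjusted p = 0.0245). In that fit 4.57% of all probes were called higher and 1.62% lower at an adjusted p under 0.05, and this clone was the 1 member clone called among the 13. Over the main fit and 13 alternatives its adjusted p ran from 0.0245 to 0.137 and its log2 ratio from 1.07 to 1.80.

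Other TAP2 sequence on the arrays did not give the same reading. Clone IMAGE:753236 was flagged on replicate 1, where its foregrounds were 74 and 76, and was not tested. On replicate 2 it read 376 and 327, a log2 ratio of -0.35, and its well carries failed code 2. Clone IMAGE:591864 carries the symbols of TAP2 and of its neighbour HLA-DOB, a class II chain that holds back peptide exchange, and was spotted 3 times. All 3 spots lay below 0 on both arrays, between -0.58 and -0.35 on replicate 1 and between -0.18 and -0.14 on replicate 2. The lowest spot came from a well with failed code 1, at a foreground of at least 1.58 times the local background. The other spots were at -0.37 and -0.35 on replicate 1 and at -0.17 and -0.14 on replicate 2. The mean over all 3 spots was -0.30 (95% interval -0.65 to 0.05, limma adjusted p = 0.258). The interval of IMAGE:2405842 lies wholly above that of IMAGE:591864, and which of them follows TAP2 RNA was not tested.

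TAPBP, the tapasin gene, was measured by 3 clones that gave close ratios. IMAGE:324935 read 486 in Saos-2 and 384 in Saos-2-2 on replicate 1, then 423 and 440 on replicate 2, with log2 ratios of -0.28 and -0.08. IMAGE:82903 read 236 and 192, then 236 and 254, with log2 ratios of -0.32 and -0.09. IMAGE:452314 read 172 and 138, then 219 and 250, with log2 ratios of -0.43 and -0.01. All 6 ratios lay below 0, and replicate 1 was lower than replicate 2 in each clone. The means were -0.18, -0.20 and -0.22, and none passed the unadjusted rule (limma adjusted p = 0.396, 0.368 and 0.419). The clones share a transcript and each array's RNA, and are not independent measures of the difference.

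**Figure D2:**
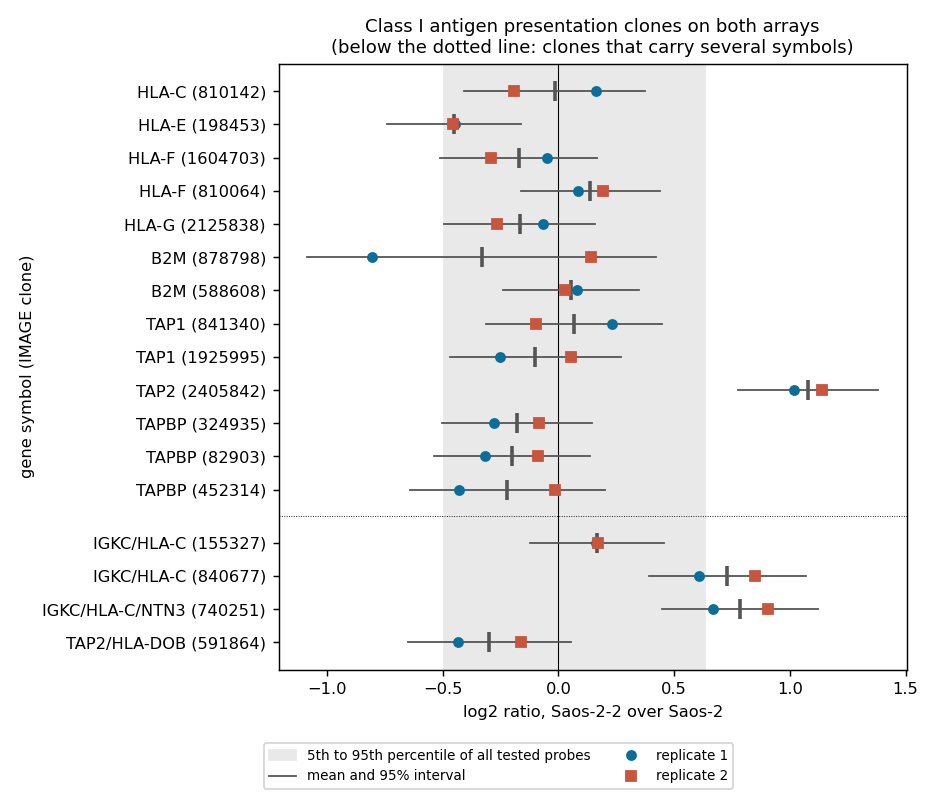
Log2 ratio of Saos-2-2 over Saos-2 for each tested clone on replicate 1 (circles) and replicate 2 (squares), with the mean and its 95% interval from limma; grey marks the 5th to 95th percentile of all tested probes, from -0.49 to 0.64. Among the clones of a single member gene, the TAP2 clone at 1.08 is the one whose mean lies outside the grey band.

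Clones that carry HLA-C beside the symbol of IGKC, the immunoglobulin kappa constant gene, were 3 in number, and 2 of them gave ratios above the 95% interval of the HLA-C clone. The difference between these clones was not tested. The gene identifier of 2 of the 3 is that of HLA-C, and the symbols of the remaining one also hold NTN3. IMAGE:840677 read 88 in Saos-2 and 148 in Saos-2-2 on replicate 1, then 87 and 197 on replicate 2, with log2 ratios of 0.61 and 0.85 (mean 0.73, 95% interval 0.39 to 1.07, limma adjusted p = 0.114). IMAGE:740251, from a CGAP plate, read 74 and 132, then 70 and 166, with log2 ratios of 0.67 and 0.90 (mean 0.79, 95% interval 0.45 to 1.12, limma adjusted p = 0.110).

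Both passed the unadjusted rule, and with the deposited ratios both passed the adjusted one (log2 ratios 1.31 and 1.80, limma adjusted p = 0.0303 and 0.0268). In IMAGE:155327 the spots differed by well, as in HLA-F. The spot of a CGAP plate was at 0.27 and 0.38, and that of a well with failed code 2 at 0.05 and -0.04, with a mean over spots of 0.17 (limma adjusted p = 0.382). The Saos-2 readings of these 3 clones lay between 70 and 133. With the 4 clones of several symbols counted in, 3 of 17 clones were higher by the unadjusted rule, beside 13.5% of all probes.

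**Figure D3:**
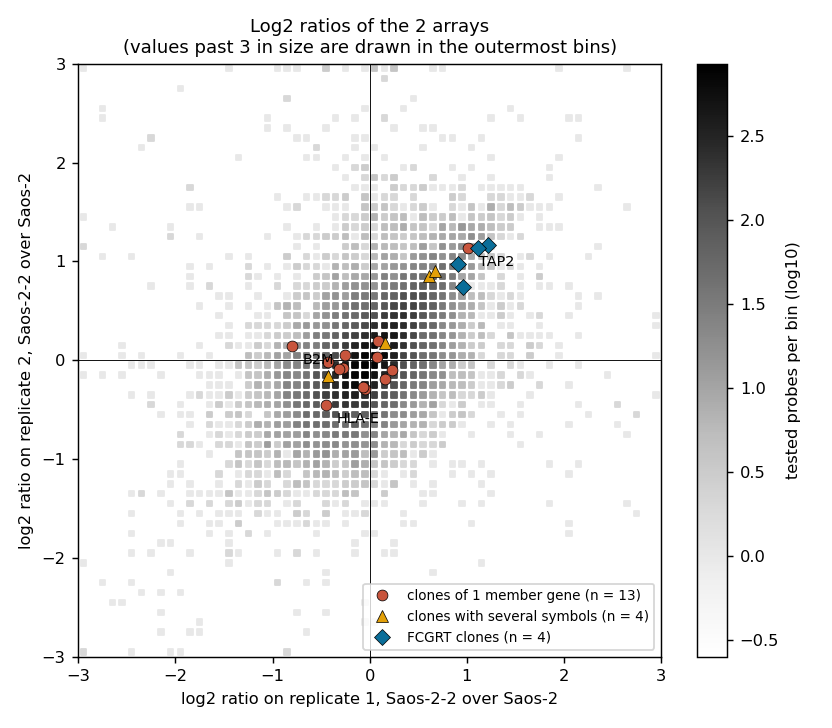
Log2 ratios on replicate 1 (x axis) and replicate 2 (y axis) for all 34674 tested probes (grey bins, darker where more probes lie), the 13 clones of a member gene (circles), the 4 clones with several symbols (triangles) and the 4 FCGRT clones (diamonds). Most member clones lie near 0 on both axes; TAP2 stands with FCGRT in the upper right, and B2M IMAGE:878798 lies left of 0 on replicate 1 and just above 0 on replicate 2.

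The peptides that TAP carries come from the proteasome, and 11 genes of the immunoproteasome and of proteasome activators were measured, of 11 listed. For the lists that follow, the brightest clone stood for a gene. None of the 11 passed the adjusted test. By the unadjusted rule 0 were higher and 3 were lower, beside 11.8% higher and 11.4% lower of all 12996 named genes by their brightest clone, the shares against which each list below is set. Their median log2 ratio was -0.07, beside -0.02 for all named genes. PSME4, which encodes the activator PA200, was lowest at -0.80, with -0.78 and -0.82 on the arrays (limma adjusted p = 0.106). Its other clones, IMAGE:725223 and IMAGE:121574, were at -0.75 and -0.35. The clone IMAGE:725223 passed the adjusted test with the deposited ratios (limma adjusted p = 0.0422), and the brightest one with the scanner software's ratios (0.0441). Readings of the brightest PSME4 clone were 805 in Saos-2 against 432 in Saos-2-2 on replicate 1, and 919 against 560 on replicate 2.

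The other genes lower by this rule were PSMB10 at -0.46 (limma adjusted p = 0.212), an inducible catalytic subunit, and PSMB6 at -0.31 (limma adjusted p = 0.203), the constitutive subunit that PSMB9 replaces. PSMB6 was named after its value was seen. PSMB9 itself, the neighbour of TAP1, was at 0.03 and 0.64 on the arrays, with a mean of 0.33 (limma adjusted p = 0.356). PSMB8, the inducible subunit encoded between TAP2 and TAP1, was at -0.13 (limma adjusted p = 0.486). The activator subunits PSME1 and PSME2 were at 0.09 and 0.11, with opposite signs on the arrays, and PSMB7 was at 0.12. The values of PSME1, PSME2 and PSMB7 turned negative with the deposited ratios.

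Of 19 listed genes of peptide loading and trimming, 17 were measured, none passed the adjusted test, and the median was -0.09. By the unadjusted rule 0 were higher (11.8% of all named genes) and 1 was lower (11.4%), THOP1, a peptidase of the cytosol, at -0.37 (limma adjusted p = 0.205), which was named after its value was seen. CALR, the chaperone calreticulin of the loading complex, was at -0.77 and -0.14 (mean -0.45, limma adjusted p = 0.266), and HSP90B1, the chaperone GRP94, at -0.86 and -0.13 (mean -0.49, limma adjusted p = 0.269). PDIA3, the disulfide isomerase paired with tapasin, and CANX, calnexin, had opposite signs on the arrays, with means of 0.06 and 0.12. The peptide-trimming enzymes ERAP1 and ERAP2 were at 0.03 and 0.07. BLMH, a cytosolic peptidase, was highest at 0.33, and SEC61G, of the protein channel of the endoplasmic reticulum, next at 0.13. The means of PDIA3, CANX, ERAP1, ERAP2 and SEC61G turned negative with the deposited ratios.

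Factors that act on class I promoters were measured for 18 of 20 listed genes. None passed the adjusted test, and 0 were higher and 1 lower by the unadjusted rule, where 11.8% and 11.4% of all named genes were. The log2 ratio lay below 0 for 13 of the 18 and for 52.7% of all named genes, and the median was -0.16. NFKB1, a subunit that binds kB sites, was lowest at -0.75, with -0.93 and -0.57 on the arrays (limma adjusted p = 0.121). For NFKB1 the limma adjusted p with the deposited ratios was 0.0496. The class I transactivator NLRC5 was at -0.25, its class II counterpart CIITA at -0.24 and their partner RFX5 at -0.15. The clones of NLRC5 and CIITA were dim, with mean log2 intensities of 6.37 and 6.33, beside 6.65 for the HLA-E clone. Their ratios depended on the background treatment. With plain subtraction they were -0.61 and -0.58, and both passed the unadjusted rule but not the adjusted one. Without any correction they were -0.30 and -0.25, and neither passed. IRF1, an activator at interferon response elements, was at -0.33 and IRF2 at -0.12. RFXAP and NFYB, which bind at the X and Y boxes, were the 2 highest, at 0.17 and 0.15.

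Of 16 listed genes of interferon receptors and JAK-STAT signalling, 15 were measured, with a median of -0.09. By the unadjusted rule 0 were higher and 1 was lower, against 11.8% and 11.4% of all named genes. SOCS1, which inhibits JAK kinases, was lowest at -0.72, with -0.49 and -0.95 on the arrays (limma adjusted p = 0.138). SOCS3, a related inhibitor, was at -0.36 in its brightest clone, and at -0.97 and -0.82 in its other clones. Those other clones passed the adjusted test with the deposited ratios (limma adjusted p = 0.0317 and 0.0489). IFNGR1, a chain of the interferon-gamma receptor, and JAK1, its kinase, were highest at 0.32 and 0.25 (limma adjusted p = 0.337 and 0.357). The other IFNGR1 clone, IMAGE:47900, was at -0.21 and -0.33 on the arrays (mean -0.27). Clones of JAK1 ran from -0.14 to 1.72, and the highest, IMAGE:2154526, was at 2.97 on replicate 1 and 0.46 on replicate 2. With the deposited ratios this clone had a mean of 2.875 (limma adjusted p = 0.0567). The study's gene table lists JAK1 as up-regulated by its own thresholds, and the clone behind that entry was not traced here.

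Class II molecules present peptides from outside the cell, and 6 of 16 listed genes were measured under a single symbol. By the unadjusted rule 1 of the 6 was higher and 0 were lower, beside 11.8% and 11.4% of all named genes, and the median was -0.13. HLA-DQA1 was highest at 0.34 (limma adjusted p = 0.184), and HLA-DQB1, its partner chain, was lowest at -0.25 (limma adjusted p = 0.254). Clones of HLA-DQB1 ran from -0.75 to 0.13, and those of HLA-DQA1 from -0.29 to 0.34, so that neither gene had 1 direction. The lowest HLA-DQB1 clone, IMAGE:809598, passed the adjusted test with the deposited ratios (limma adjusted p = 0.0398). HLA-DPB1 was at -0.20 and HLA-DRA at -0.01.

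Molecules built like class I heavy chains were measured for 10 of 16 listed genes, with a median of -0.02. By the unadjusted rule 2 of the 10 were higher and 3 lower, beside 11.8% and 11.4% of all named genes. FCGRT, the heavy chain of the neonatal Fc receptor, which pairs with beta-2-microglobulin and carries IgG and albumin, was highest. Its brightest clone, IMAGE:1154773, read 280 in Saos-2 and 616 in Saos-2-2 on replicate 1, then 278 and 679 on replicate 2. The log2 ratios were 1.22 and 1.16, with a mean of 1.19 or 2.29-fold (standard error 0.10, 95% interval 0.90 to 1.49, limma adjusted p = 0.106). The other 3 clones of FCGRT were at 1.13, 0.94 and 0.85, and all 8 array values of the 4 clones were above 0. With the deposited ratios all 4 clones passed the adjusted test, with limma adjusted p from 0.0348 to 0.0445.

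MICA, a stress-induced ligand of the receptor NKG2D on natural killer cells, was lowest of this list. It read 702 in Saos-2 and 396 in Saos-2-2 on replicate 1, then 507 and 362 on replicate 2, with log2 ratios of -0.73 and -0.63 (mean -0.68, limma adjusted p = 0.111). With the deposited ratios its adjusted p was 0.0477. PROCR, the endothelial protein C receptor, was at -0.55 (limma adjusted p = 0.151) and CD1A, which presents lipids, at -0.38 (limma adjusted p = 0.163), the latter named after its value was seen. HFE, the iron-regulating class I-like protein, was at 0.65 in its brightest clone (limma adjusted p = 0.157) and at -0.33 and -0.37 in the other clones, so that its clones did not give 1 direction. The gene targeted by the shRNA, TSG101, was at -0.48 and -0.24 on the arrays (mean -0.36, limma adjusted p = 0.201).

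**Figure D4:**
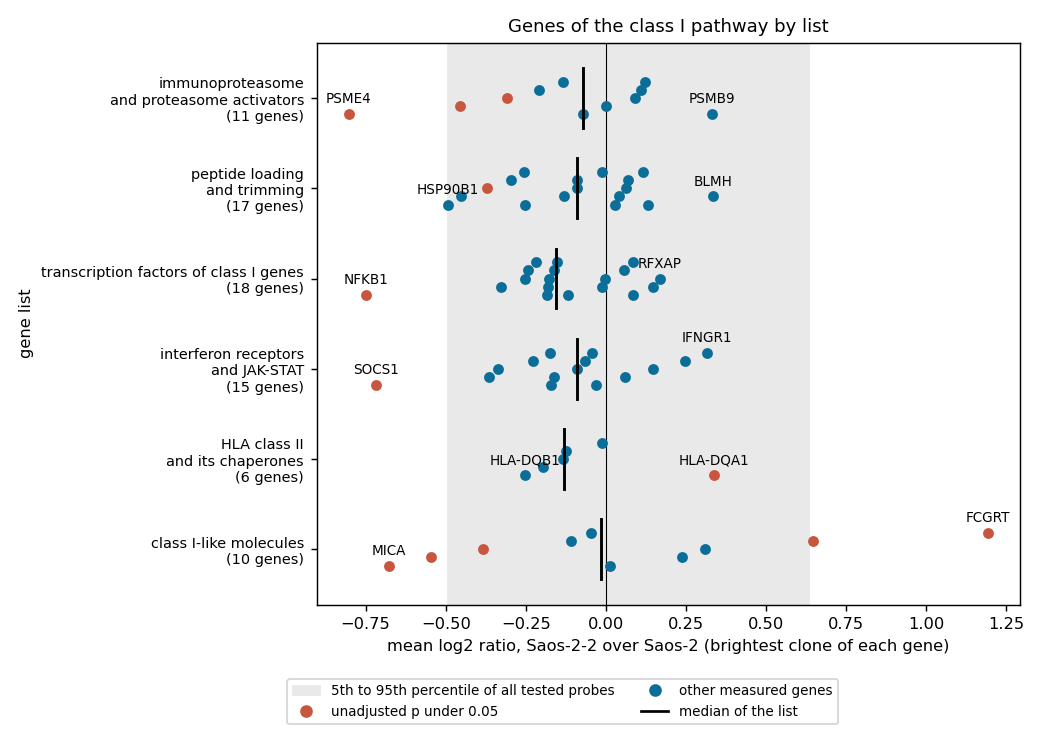
Mean log2 ratio of Saos-2-2 over Saos-2 for each measured gene of the 6 pathway lists, by its brightest clone (red: unadjusted p under 0.05; black bars: list medians; grey: 5th to 95th percentile of all tested probes). The list medians run from -0.16 to -0.02, and the genes farthest from 0 are FCGRT at 1.19 and PSME4 at -0.80.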

How the data were processed

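The authors deposited 1 scanner table per array with linear foreground and background intensity of each spot, without normalization, and log2 ratios scaled by 1 factor per array. The deposited series table equals those log2 ratios of medians at every spot with a value. Agilent Feature Extraction is the tool in the submitters' processing notes (no version), and limma that in the legend of the study's gene table.

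With limma 3.58.1 in R 4.3.3, mean foregrounds were corrected by normexp (offset 50), arrays were normalized by global loess, and spots of a clone were averaged. The 226 control spots and spots flagged by the scanner software (3749 and 4381 on replicates 1 and 2) were not used. Probes with a channel at 1.5 times its local background on both arrays were tested against a log2 ratio of 0 (two-sided), with variances moderated at 2.75 prior degrees of freedom and Benjamini-Hochberg adjustment across all of them at 0.05. Both arrays had 0 saturated spots, and precision is limited by their number. The replicates are called biological in the labels. The p-values rest only on the spread between 2 arrays, moderated for each clone towards that of all tested probes.

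A clone was assigned to a gene when all its symbols and identifiers gave 1 gene. Each member clone is named, with, for each list, the 2 highest and 2 lowest genes and a set of 17 core genes where tested, except that a value the rule takes is not reported here. Members and lists were chosen with earlier results of these data known. The fit was tested on simulated data. Alternatives changed the background correction, foreground, normalization, filters, variance model and values, and 3 were added after seeing the data. Promoters were searched as text, and pictures drawn with matplotlib 3.10.9 under Python 3.11.15.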

Additional observations from a re-analysis of the deposited data

How the results depend on the processing

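With 2 arrays, small differences could not be resolved. Some member spots were dim, and with dyes in 1 orientation a dye effect cannot be told apart from a difference between the lines. The adjusted p of every probe stayed above 0.05 except with the deposited and the scanner software's log2 ratios. The median over member clones of -0.17 was -0.0931 with the median foreground, -0.19 with median centring, -0.0928 with print-tip loess, -0.33 with the deposited ratios, -0.31 with the scanner software's ratios, -0.14 without failed wells, -0.16 without CGAP plates and -0.10 with the clones of several symbols, and from -0.0818 to -0.0671 on 1 array alone. Of the clones higher at an unadjusted p under 0.05, 1 in the main fit, the count was 2 without failed wells and 3 with the clones of several symbols. The count of lower clones, 1, was 2 with median centring and with the scanner software's ratios. The alternatives without failed wells, without CGAP plates and with clones of several symbols were chosen after seeing the data.

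Some values near 0 changed sign, and the cause was not tested. With the deposited ratios, negative values were found for TAP1 IMAGE:841340 (-0.11), PSME1 (-0.048), PSME2 (-0.18), PSMB7 (-0.024), ERAP1 (-0.19), PDIA3 (-0.19), ERAP2 (-0.038), CANX (-0.12), SEC61G (-0.12) and RFXAP (-0.13). With the scanner software's ratios these were -0.087, -0.050, -0.18, -0.12, -0.18, -0.23, -0.009, -0.17, -0.097 and -0.058, and NFYB was at -0.013. With median centring, TAP1 IMAGE:841340 was at -0.011, PSME2 at -0.10, PSMB7 at -0.039, ERAP1 at -0.091, PDIA3 at -0.14, CANX at -0.090 and SEC61G at -0.018. With print-tip loess, B2M IMAGE:588608 was at -0.013, TAPBP IMAGE:324935 at 0.060, PSME1 at -0.012, ERAP1 at -0.023, ERAP2 at -0.030, CANX at -0.025, HLA-DRA at 0.028 and JAK1 IMAGE:2108002 at 0.0885. HLA-C IMAGE:810142 was at 0.042 and HLA-DQA1 IMAGE:1883186 at -0.00923 with the median foreground, HLA-F IMAGE:810064 at -0.025 without CGAP plates, and TAP1 at -0.016 as the mean of its clones. Each log2 ratio pairs both lines within an array, and no other block was fitted.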
